A study of Rattus norvegicus with 6 samples.

Results

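Mast cells were followed in regenerated rat sciatic nerve through 9 genes that were chosen by name: Cpa3, Kit, Fcer1a, Ms4a2, Tpsab1, Tpsb2, Cma1, Hdc and Gata2. Each matched 1 row of a table of 23091 genes, and 9 of 9 passed the filter on low counts that left 13999 genes for testing. Messenger RNA was sequenced in 6 libraries of nerve that had regrown across a sciatic nerve defect in male Sprague-Dawley rats of wild-type genotype. In 3 libraries (implant 1 to implant 3) the defect was bridged with the GDNF-Gel/HA-Mg conduit (GDNF is glial cell line-derived neurotrophic factor). In the other 3 (NC 1 to NC 3) the defect had no implant and the wound was simply closed. The nerve defect is shared by both groups, and an uninjured nerve was not analysed here. No source used here gives the rats' age, the time after surgery or the number of animals behind a library, so p-values measure the spread between these libraries only.

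Mast cells are tissue-resident granulocytes that lie along vessels and in the sheaths of peripheral nerve, and they take part in the response of nerve to injury. They depend on the receptor Kit and its ligand, stem cell factor. Cross-linking of antibody on their high-affinity IgE receptor makes them release granules that hold histamine, heparin and proteases, and rodent connective tissue and mucosal mast cells are told apart by which proteases they store. In bulk tissue, fewer mast cells and less of an RNA per mast cell cannot be told apart.

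The total count was between 15897850 and 18491379 per library. Haemoglobin genes took 8.08%, 12.9% and 14.8% of the counts in implant 1, implant 2 and implant 3, and 1.19%, 1.02% and 25.2% in NC 1, NC 2 and NC 3. Sox10, a transcription factor of Schwann cells and so a marker of the labelled tissue, was present in each library, with 179, 122 and 161 CPM (counts scaled to the library size) in the implant libraries and 154, 243 and 21.8 CPM in NC. At an adjusted p under 0.05 (edgeR, quasi-likelihood, Benjamini-Hochberg), 0 of 13999 genes (0%) passed, while 241 genes (1.72%) had an unadjusted p under 0.05. DESeq2 called 11 (0.0786%).

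None of the 9 mast cell genes was called between the groups, by edgeR or by DESeq2. An unadjusted p under 0.05 in edgeR was reached by 0 of 9, and in 0 of 9 were the groups free of overlap, where 5.69% of all genes were (2.88% with the implant lower). The log2 fold change (implant over NC) was below 0 for 8 of 9 genes, as it was for 53% of all genes tested, and below -0.2 for 7 of 9, against 16.4% of all genes. The median standard error was 0.39 for the 9 genes and 0.23 for all genes tested. Noisier genes pass such a fixed cut more readily, and the 9 genes vary together, so these counts are a description only. The median was -0.29 over the 9 genes and -0.01 over all genes tested. That median rested on NC 3, the library in which 8 of 9 genes had their highest CPM: without it the median was 0.03 and 4 of 9 log2 fold changes were below 0. That rank rests in part on the scaling, as the TMM factor of NC 3 was 0.769, against 0.963 to 1.17 in the other libraries. In unscaled counts implant 2 was above NC 3 for Gata2 (334 against 272) and Hdc (66 against 65). The median was -0.14 without implant 3 and -0.51 without NC 1. In 7 of the 9 genes the lowest library was implant 3. That library also had the most skeletal muscle RNA: 8 muscle genes, 0 of them called, summed to 7569 CPM there. In the other libraries they summed to between 28.0 and 1579 CPM. The part of this muscle RNA in the mast cell gene levels was not tested.

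In mouse mast cells, GATA factors act at Cpa3 and at the IgE receptor genes, and Mitf acts at several protease genes. The promoters of Cpa3, Fcer1a, Tpsb2 and Cma1, which were highest in NC 3 and lowest in implant 3, are shown, with Tpsab1 as the neighbour of Tpsb2 that followed them less. Hdc was also highest in NC 3 and lowest in implant 3, but its window, which held neither motif marked below, is not printed. The printed windows thus do not tie a motif to that profile. Promoters were found by symbol in RefSeq (build GRCr8) for 8 of the 9 genes, and the 250 bases before the start site are printed 5′ to 3′ on the gene's strand. Ms4a2 had no entry. Capitals mark a GATA motif, spelled GATAA, which reads as TTATC where it lies on the opposite strand. They also mark an E-box spelled CACATG, which in the same way reads as CATGTG. Both strands were searched, and these 2 motifs do not overlap each other in the printed sequences. The windows are Cpa3 at chr2:104673238-104673487 (minus strand), Fcer1a at chr13:88224680-88224929 (minus strand), Tpsb2 at chr10:14886060-14886309 (plus strand), Cma1 at chr15:33390134-33390383 (minus strand) and Tpsab1 at chr10:14867303-14867552 (minus strand).
Cpa3: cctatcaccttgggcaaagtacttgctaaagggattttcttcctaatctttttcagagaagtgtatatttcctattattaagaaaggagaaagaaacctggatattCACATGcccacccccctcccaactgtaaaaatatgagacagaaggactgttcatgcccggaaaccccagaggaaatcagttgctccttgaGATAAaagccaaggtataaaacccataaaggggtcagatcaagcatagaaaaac
Fcer1a: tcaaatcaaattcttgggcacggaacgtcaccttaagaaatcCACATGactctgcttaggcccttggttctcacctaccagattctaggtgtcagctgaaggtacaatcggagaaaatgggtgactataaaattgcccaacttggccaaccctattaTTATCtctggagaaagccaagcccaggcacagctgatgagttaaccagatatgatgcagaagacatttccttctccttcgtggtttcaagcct
Tpsb2: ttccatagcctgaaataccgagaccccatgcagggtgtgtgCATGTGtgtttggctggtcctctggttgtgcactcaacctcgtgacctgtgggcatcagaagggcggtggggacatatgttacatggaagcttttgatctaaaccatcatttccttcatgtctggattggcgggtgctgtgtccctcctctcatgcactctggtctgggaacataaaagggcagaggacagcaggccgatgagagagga
Cma1: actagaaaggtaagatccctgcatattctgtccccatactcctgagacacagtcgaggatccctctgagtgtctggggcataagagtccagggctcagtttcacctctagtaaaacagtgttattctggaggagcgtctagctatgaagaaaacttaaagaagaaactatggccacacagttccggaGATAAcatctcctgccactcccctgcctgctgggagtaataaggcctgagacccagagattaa
Tpsab1: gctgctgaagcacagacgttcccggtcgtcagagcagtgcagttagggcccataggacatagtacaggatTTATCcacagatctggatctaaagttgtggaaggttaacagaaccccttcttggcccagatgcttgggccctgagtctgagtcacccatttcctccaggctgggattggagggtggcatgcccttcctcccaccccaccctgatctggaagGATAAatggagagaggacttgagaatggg
GATAA was found in 4 of the 8 promoters (Cpa3, Fcer1a, Cma1 and Tpsab1) and in 23.5% of all 33469 promoter windows of this length. In Cpa3 it lay 54 to 50 bases before the start site and in Cma1 63 to 59 bases before it. CACATG was found in 3 of the 8 (Cpa3, Fcer1a and Tpsb2) and in 12.1% of all windows. The windows of Kit, Hdc and Gata2 held neither. A match describes the letters of a window and does not show a bound site.

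The granule proteases are taken first. Cpa3 (ENSRNOG00000011181) encodes carboxypeptidase A3, which is stored in mast cell granules bound to heparin. It had 827, 911 and 403 counts in implant 1, implant 2 and implant 3, and 870, 726 and 1183 in NC 1, NC 2 and NC 3. As scaled levels these were 48.4, 49.5 and 23.8 CPM with the implant and 45.2, 42.0 and 85.5 CPM in NC. Implant 3 was the lowest and NC 3 the highest, and the other 4 libraries lay within 42.0 to 49.5 CPM, so the groups overlapped. The mean was 40.6 ± 14.6 CPM with the implant and 57.6 ± 24.3 CPM in NC (SD, n = 3 each), a log2 fold change of -0.50 ± 0.39 (SE; edgeR unadjusted p 0.247, adjusted p 1). The 95% interval of the fold ran from 0.363 to 1.37. The log2 fold change was -0.11 without NC 3 and -0.23 without implant 3.

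Cma1 (ENSRNOG00000020563), the chymase also called Mcpt5, had 19.9, 21.4 and 17.5 CPM in the implant libraries and 21.3, 19.8 and 40.8 CPM in the NC libraries. Here 5 libraries lay close together and NC 3 alone stood above them. Cma1 had the smallest unadjusted p of the 9 genes, with a log2 fold change of -0.48 ± 0.30 (SE, edgeR unadjusted p 0.161, adjusted p 1). Without NC 3 it was -0.08.

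The 2 tryptases, Tpsb2 (Mcpt6, ENSRNOG00000018611) and Tpsab1 (Mcpt7, ENSRNOG00000024181), are neighbours on chromosome 10. They are paralogs, so reads of one may in part have been counted to the other. Tpsb2 stood at 8.43, 11.2 and 4.95 CPM with the implant and at 7.84, 8.21 and 16.6 CPM in NC. Its lowest and highest libraries were thus those of Cpa3. Tpsab1 stood at 4.98, 4.24 and 3.30 CPM in the implant libraries and at 2.86, 6.13 and 8.02 CPM in the NC libraries. Unlike Tpsb2 it was lowest in NC 1, and the group ranges overlapped. The log2 fold changes were -0.40 ± 0.42 for Tpsb2 and -0.44 ± 0.41 for Tpsab1 (SE, edgeR adjusted p 1 for both).

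**Figure D1:**
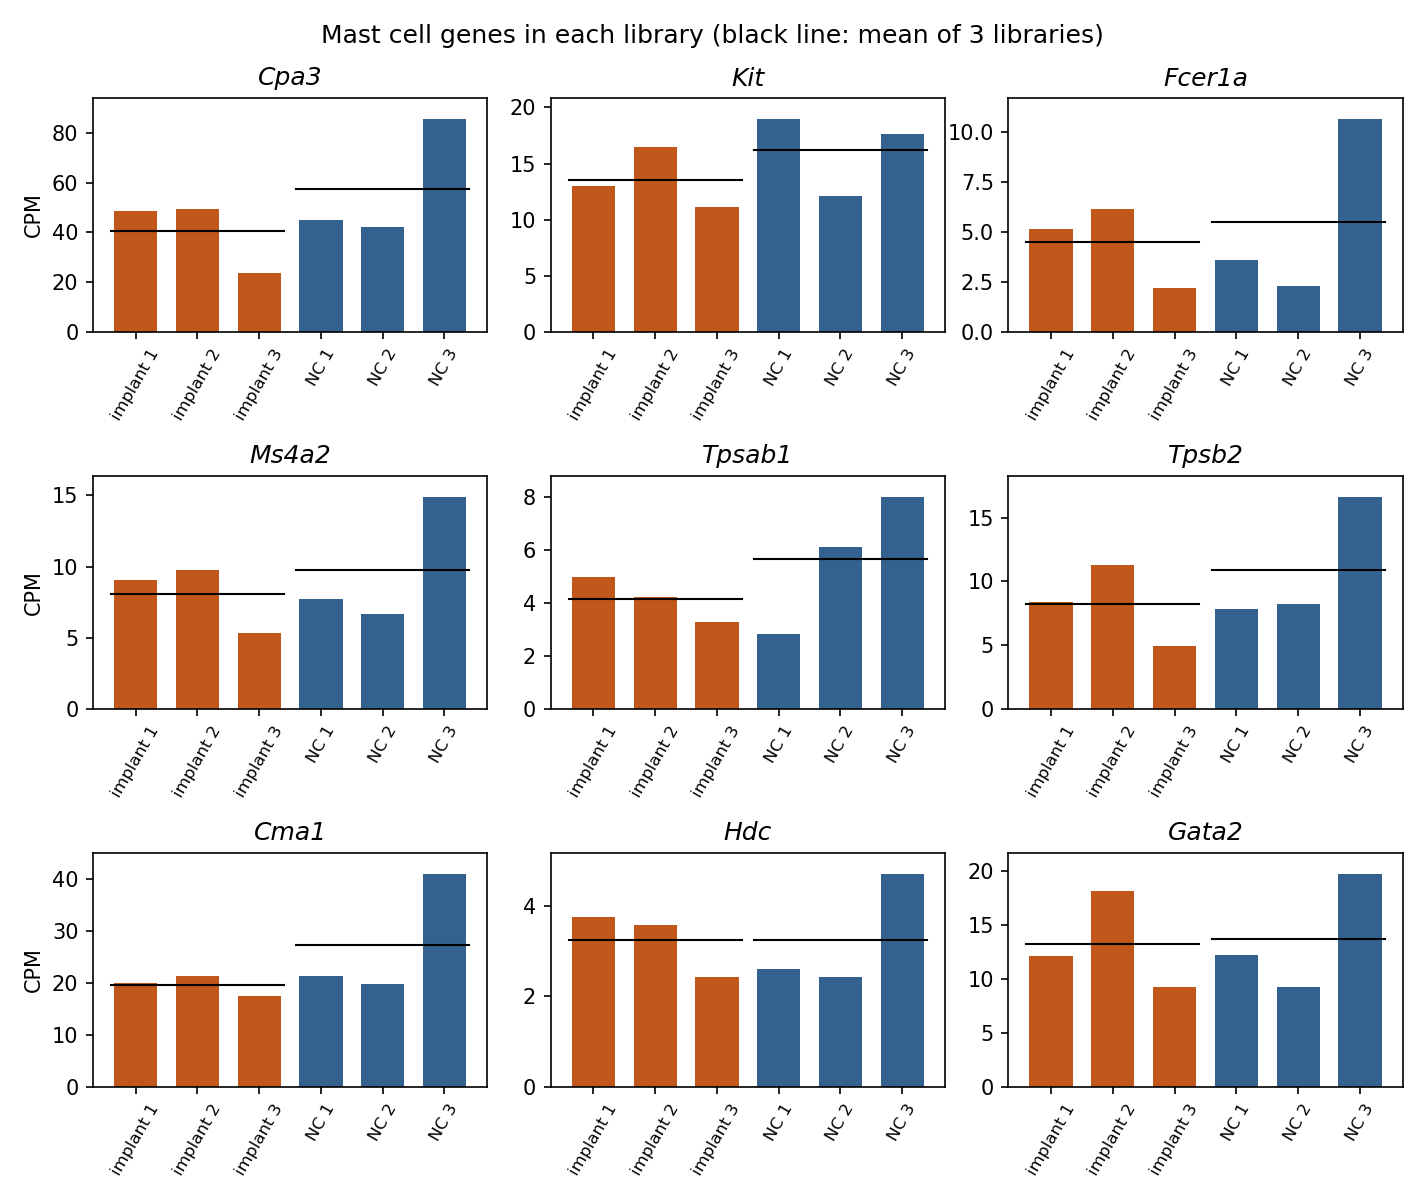
CPM of each of the 9 mast cell genes in each library, with a panel per gene, implant libraries in orange on the left, NC libraries in blue on the right and the mean of 3 libraries as a black line. NC 3 is the highest bar in 8 of the 9 panels and implant 3 the lowest in 7, and the groups overlap in all 9.

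The receptors of mast cells follow. Fcer1a (ENSRNOG00000009177) encodes the alpha chain of the high-affinity IgE receptor, the chain that binds IgE. It had 88, 113 and 37 counts in the implant libraries and 69, 40 and 147 in NC. The levels were 5.15, 6.14 and 2.18 CPM with the implant and 3.58, 2.31 and 10.6 CPM in NC. NC 3 was the highest and implant 3 the lowest library, and the groups overlapped. It spanned 4.87-fold between the lowest and highest library, the widest span of the 9 genes, and its standard error was the widest too (log2 fold change -0.29 ± 0.67, SE, edgeR adjusted p 1). Without NC 3 the log2 fold change was 0.60. Ms4a2 (ENSRNOG00000020993), the beta chain that amplifies the signal of the same receptor, stood at 9.07, 9.78 and 5.37 CPM in the implant libraries and at 7.74, 6.70 and 14.9 CPM in NC. Its profile over the 6 libraries was the closest to that of Fcer1a among the 36 pairs of mast cell genes (Pearson r of log2 CPM 0.98, n = 6 libraries). The log2 fold change of Ms4a2 was -0.27 ± 0.39 (SE, edgeR adjusted p 1).

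Kit (ENSRNOG00000002227), the receptor for stem cell factor, was not highest in NC 3. Its level was 13.0, 16.5 and 11.1 CPM with the implant and 18.95, 12.1 and 17.6 CPM in NC. NC 1 was the highest library, and the whole span was 1.70-fold, the narrowest of the 9. The mean was 13.6 ± 2.73 CPM with the implant and 16.2 ± 3.65 CPM in NC (SD, n = 3 each; log2 fold change -0.26 ± 0.24, SE, edgeR adjusted p 1). Its 95% interval, from 0.56-fold to 1.25-fold, leaves out a change of 2-fold in either direction.

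Hdc and Gata2 completed the list. Hdc (ENSRNOG00000010262), the histidine decarboxylase that makes histamine, had only 41 to 66 counts per library. It stood at 3.75, 3.59 and 2.42 CPM in the implant libraries and at 2.60, 2.43 and 4.70 CPM in NC. The group means were 3.25 ± 0.73 CPM with the implant and 3.24 ± 1.27 CPM in NC (SD, n = 3 each), with a log2 fold change of 0.01 ± 0.37 (SE, edgeR adjusted p 1). Gata2 (ENSRNOG00000012347), a transcription factor of mast cells that endothelium also expresses, stood at 12.1, 18.1 and 9.26 CPM in the implant libraries and at 12.2, 9.25 and 19.7 CPM in NC. Implant 2 was high next to NC 3, and NC 2 and implant 3 were at the low end. Its log2 fold change was -0.05 ± 0.37 (SE, edgeR adjusted p 1).

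**Figure D2:**
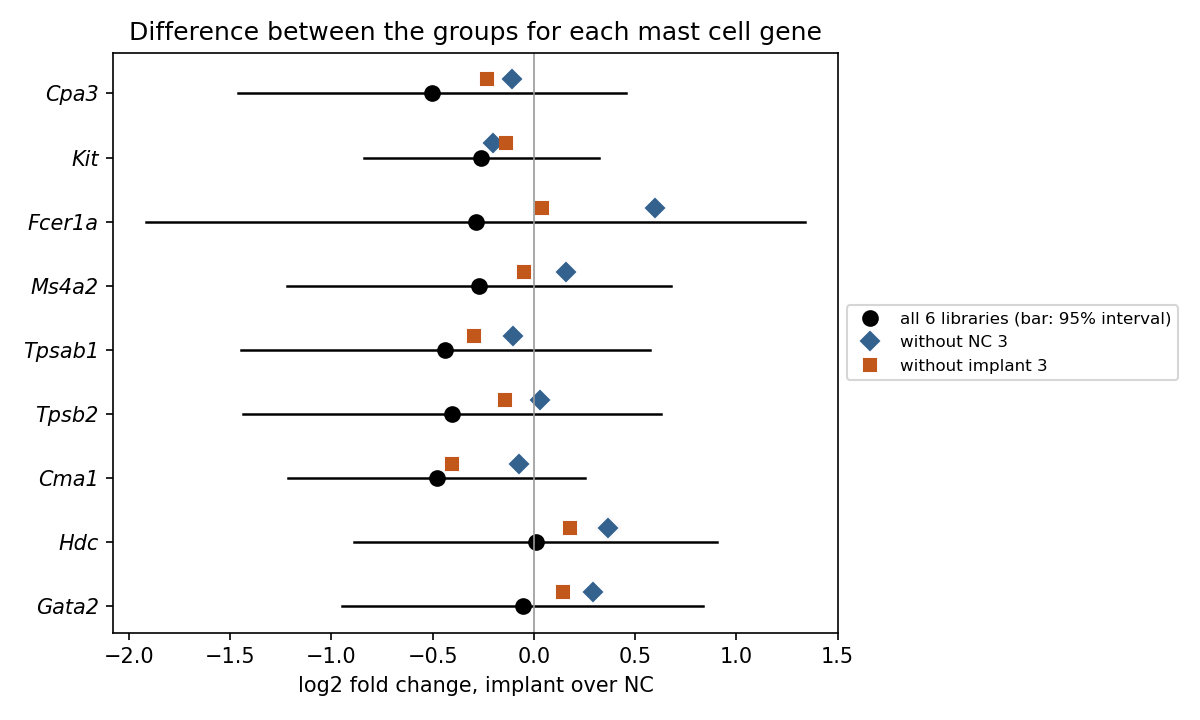
Log2 fold change (implant over NC) of each mast cell gene with all 6 libraries (black circles, bars are 95% intervals), without NC 3 (blue diamonds) and without implant 3 (orange squares). The 9 intervals include 0, and Fcer1a stands at 0.60 without NC 3 and at -0.29 with all libraries.

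The profiles over the 6 libraries showed which of the genes varied together. Over the 36 pairs of the 9 genes, the median Pearson r of log2 CPM was 0.82, and 19 pairs reached 0.8 (n = 6 libraries, which share their depth and scaling across genes). The share of all gene pairs that reach 0.8 was not computed, so the count is a description only. By r with Cpa3, the other mast cell genes ranked from 23 (Tpsb2) to 1509 (Tpsab1) of 13998 genes. Ms4a2 had the highest median r with the other 8 genes (0.926), followed by Fcer1a (0.895), Tpsb2 (0.879) and Cpa3 (0.851). Kit (0.664) and Tpsab1 (0.635) had the lowest, and the r between these 2 was -0.01. Set against their 6-library average, the 9 genes had a mean level of 0.03, 0.20 and -0.60 log2 units in implant 1, implant 2 and implant 3, and of -0.14, -0.26 and 0.77 in NC 1, NC 2 and NC 3. NC 3 was the highest library for 24.8% of all genes tested, against 8 of these 9, and implant 3 was the lowest for 15.5% of all genes and for 7 of these 9.

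**Figure D3:**
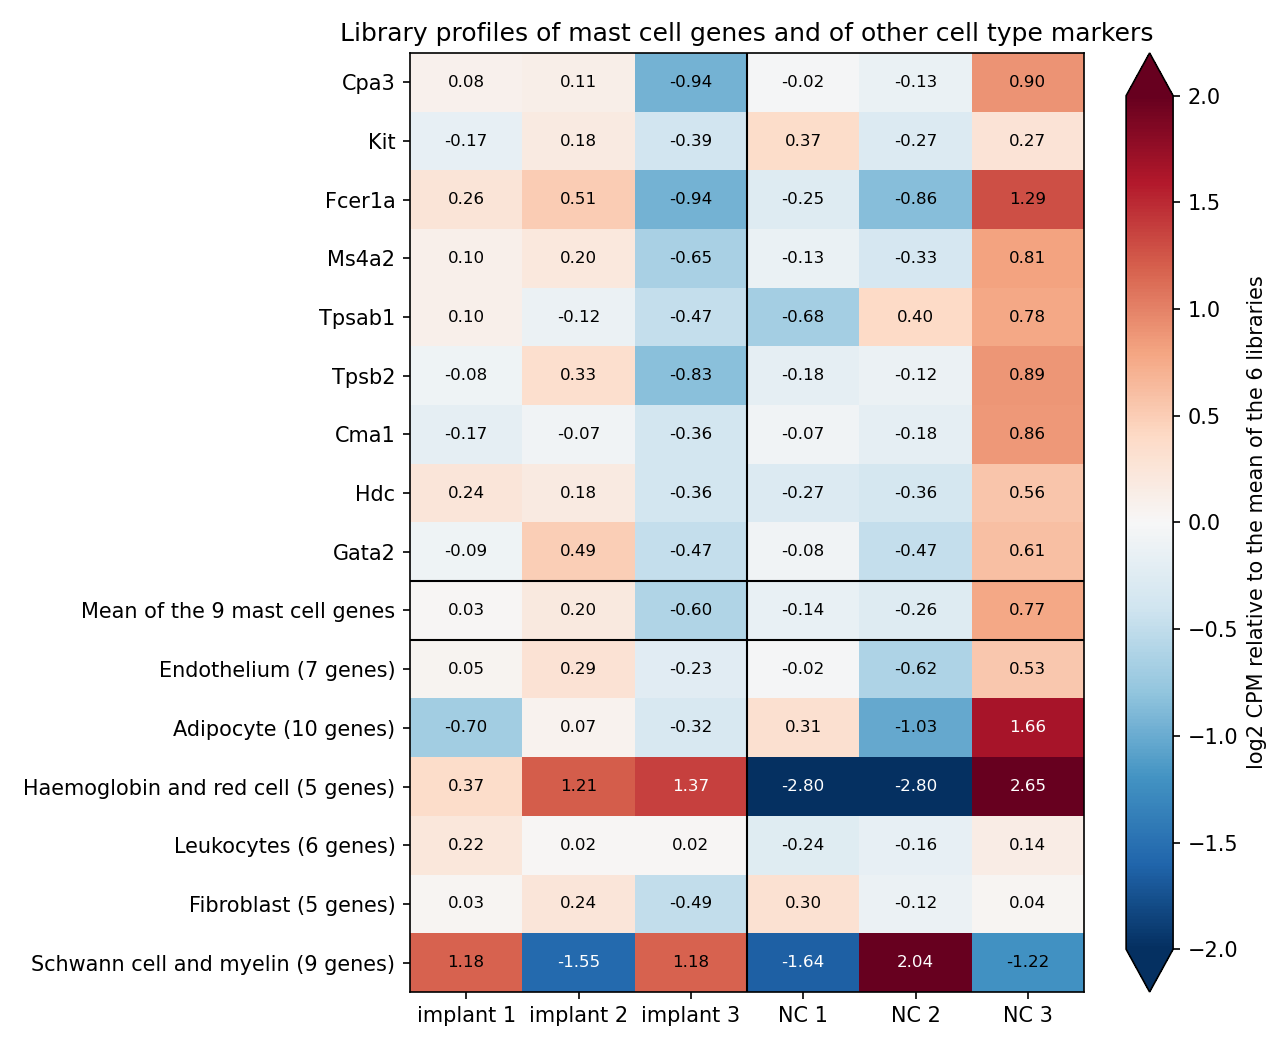
Log2 CPM relative to the mean of the 6 libraries (numbers and colours, red higher and blue lower, colours capped at 2 on either side) for each mast cell gene, the mean of the 9, and the mean of marker lists of other cell types. NC 3 is at 0.77 and implant 3 at -0.60 for the mean of the 9 mast cell genes, and NC 3 is also the highest library of the endothelial (0.53), adipocyte (1.66) and red cell (2.65) lists.

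Counts were also set against the Cpa3 count of the same library, a ratio that does not depend on the scaling between libraries. Tpsb2 amounted to 0.174, 0.227 and 0.208 of the Cpa3 count in the implant libraries and to 0.174, 0.196 and 0.194 in NC, a span of 1.31-fold. Ms4a2 spanned 1.41-fold. The Cpa3 level itself spanned 3.599-fold over these libraries. Cma1 was at 0.411 and 0.431 of Cpa3 in implant 1 and implant 2, at 0.734 in implant 3, and at 0.472, 0.472 and 0.478 in NC. The 95% interval for implant 3 (exact binomial, counting error only), 0.63 to 0.856, did not reach those of the other 5 libraries, the highest of which ended at 0.538. Kit spanned 2.27-fold, Fcer1a 2.26-fold and Tpsab1 2.31-fold relative to Cpa3.

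Hdc and Ms4a2 were higher relative to Cpa3 in each implant library than in any NC library. Hdc was at 0.0774, 0.0724 and 0.102 of Cpa3 in implant 1 to implant 3 and at 0.0575, 0.0579 and 0.0549 in NC 1 to NC 3. Ms4a2 was at 0.187, 0.198 and 0.226 with the implant and at 0.171, 0.16 and 0.174 in NC. These ratios were looked at after the levels were seen. They concern 2 of the 9 genes, among which Cpa3, the base of the ratio, could not be counted. Of all genes tested, 5.68% had a higher ratio to Cpa3 in each implant library than in any NC library. The counting intervals of the Ms4a2 ratio overlapped in each pair of libraries across the groups. Those of the Hdc ratio did so in each pair but implant 3 (0.0719 to 0.14) and NC 3 (0.0421 to 0.0706), and no test was made of these ratios.

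**Figure D4:**
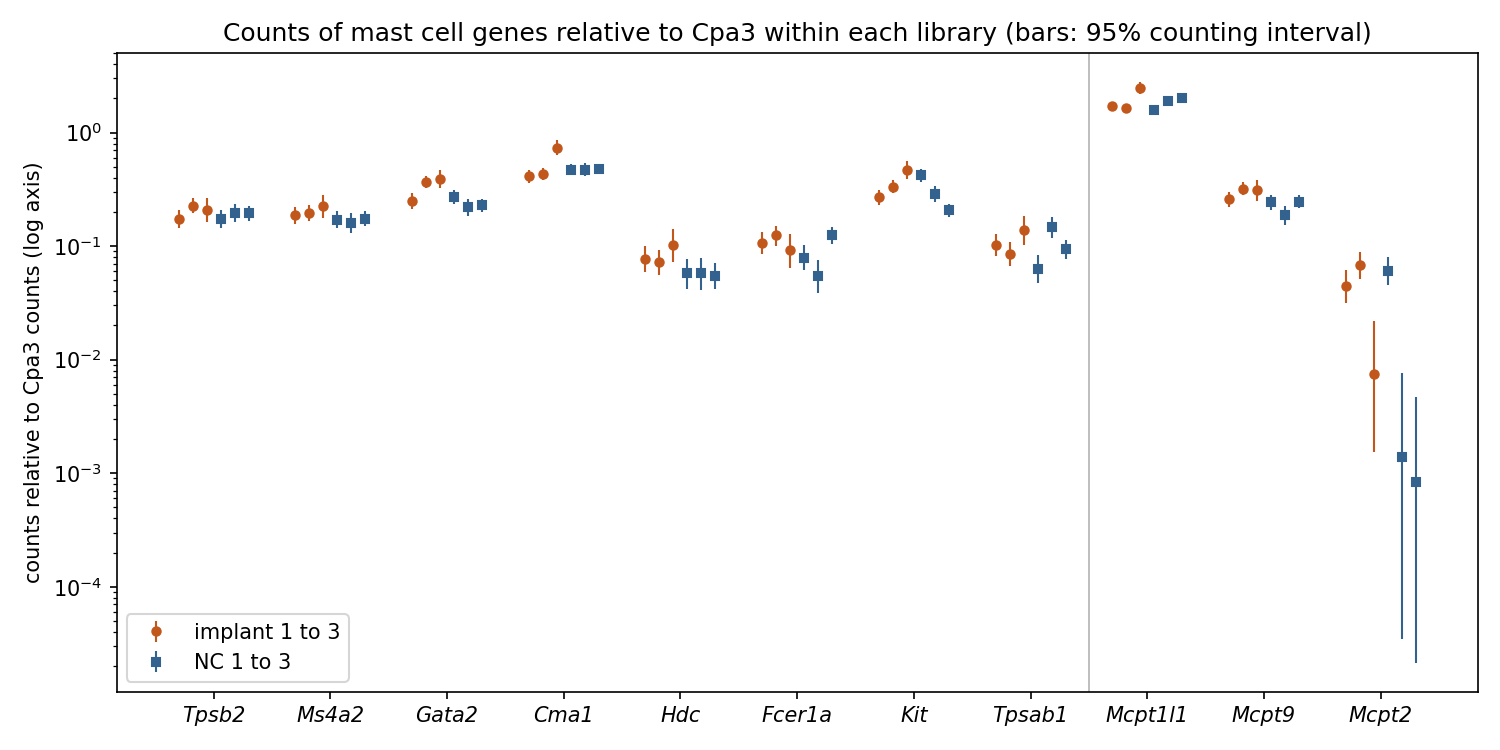
Counts of each gene relative to the Cpa3 count of the same library, on a log axis, for 8 mast cell genes (left of the line) and 3 further proteases (right), with 95% binomial intervals that cover counting error only; orange circles are implant 1 to implant 3 and blue squares NC 1 to NC 3, in that order. Tpsb2 spans 1.31-fold and Ms4a2 1.41-fold over the libraries, while Mcpt2 spans 80.5-fold.

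Other granule genes of mast cells were examined next. Of a list of 19, 13 were in the table, 6 were tested and 0 were called in either direction (median log2 fold change -0.11, 4 of 6 below 0, against 53% of all genes tested). Mcpt1l1, of the rat Mcpt1 chymase family, stood at 82.9, 81.2 and 58.8 CPM in the implant libraries and at 71.6, 78.8 and 172 CPM in NC. Its ratio to Cma1 was between 3.36 and 4.22 in the 6 libraries. This family has near-identical copies, among them Mcpt1l2 and Mcpt1l3 with 0 to 2 counts per library, so its reads may be split among entries and the level of 1 entry is uncertain. Mcpt9 encodes a further protease, and its gene lies between Mcpt1l3 and Mcpt1 on chromosome 15. It stood at 12.5, 15.9 and 7.37 CPM in the implant libraries and at 10.95, 7.86 and 21.1 CPM in NC. Mcpt9 was also lowest in implant 3 and highest in NC 3.

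Mcpt2 broke that pattern. It encodes rat mast cell protease 2, which marks mucosal mast cells in the rat, and it had 37, 62 and 3 counts in implant 1, implant 2 and implant 3, and 53, 1 and 1 in NC 1, NC 2 and NC 3. In 3 libraries it was thus plainly present and in the other 3 it was nearly absent, with both kinds in each group (log2 fold change 0.95 ± 1.51, SE, edgeR adjusted p 1). NC 3, the richest library in Cpa3, had 1 count. Slc18a2, the transporter that loads histamine and other amines into granules, was likewise higher in implant 1, implant 2 and NC 1. It stood at 22.1, 39.3 and 6.19 CPM in the implant libraries and at 28.7, 8.67 and 11.3 CPM in NC. Ano1, a marker of interstitial cells that carry Kit, was also highest in those 3 libraries, at 26.0, 41.2 and 14.6 CPM with the implant and 38.3, 14.6 and 16.05 CPM in NC. The Schwann cell marker Ngfr stood at 240, 380 and 84.8 CPM in the implant libraries and at 434, 109 and 43.7 CPM in NC, again high in the 3 libraries with Mcpt2. What part these cells have in the Mcpt2 counts was not tested.

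**Figure D5:**
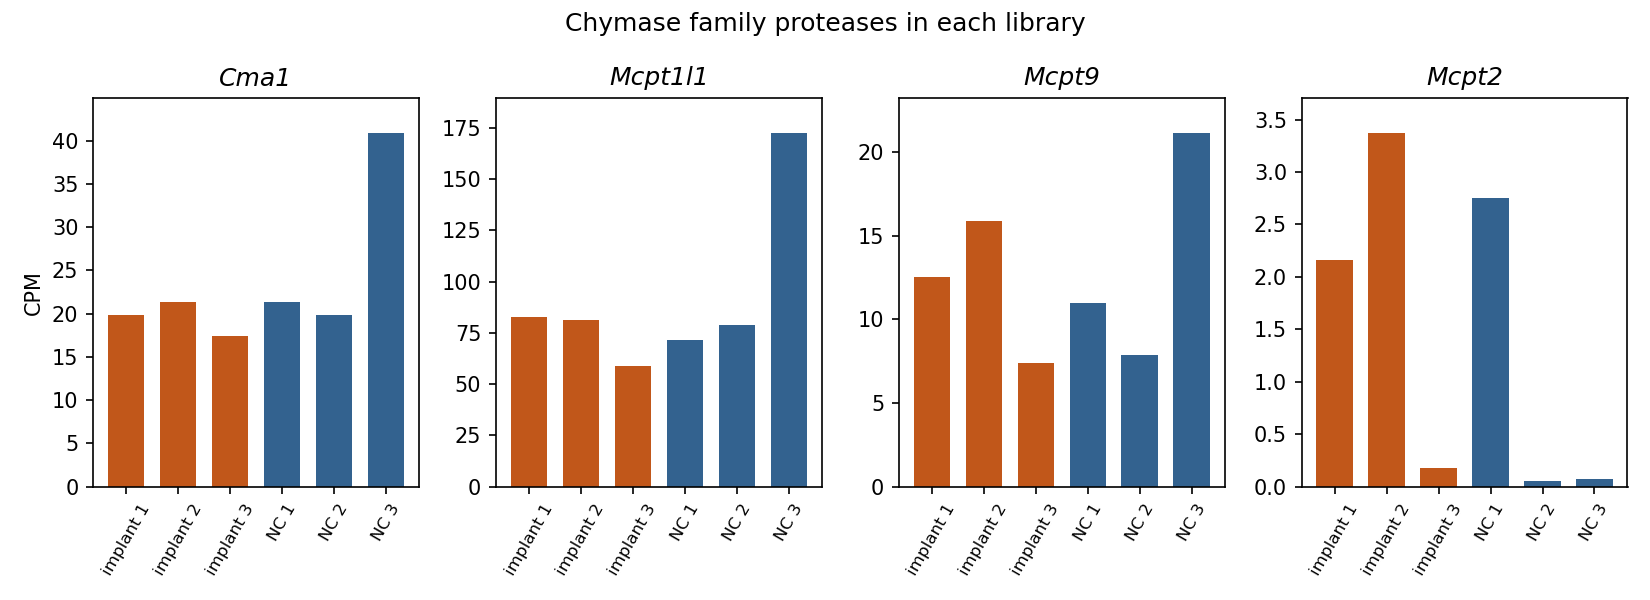
CPM of Cma1 and of 3 further mast cell proteases in each library, implant libraries in orange on the left and NC libraries in blue on the right. Cma1, Mcpt1l1 and Mcpt9 are highest in NC 3, while Mcpt2 is high in implant 1, implant 2 and NC 1 only, with 1 to 3 counts in the other libraries.

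The Kit pathway was measured by 12 genes, of which 0 were called. The ligand Kitlg, stem cell factor, stood at 119, 124 and 102 CPM in the implant libraries and at 127, 111 and 156 CPM in NC. Its log2 fold change was -0.19 ± 0.17 (SE, edgeR adjusted p 1), and implant 3 and NC 3 were its lowest and highest libraries as for Cpa3. Ptpn6, the phosphatase SHP-1 that dampens Kit signals, had the smallest unadjusted p of the list. It stood at 40.1, 53.6 and 44.9 CPM with the implant and at 41.7, 32.2 and 36.9 CPM in NC (log2 fold change 0.32 ± 0.16, SE, edgeR unadjusted p 0.092, adjusted p 1). Mitf, the transcription factor that acts with Kit in mast cells and melanocytes, stood at 30.0, 28.4 and 30.8 CPM with the implant and at 24.3, 35.4 and 39.9 CPM in NC, overlapping.

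Signalling below the IgE receptor was measured by 12 genes, which other leukocytes share, and 0 were called. Of these 11 had a log2 fold change above 0 (median 0.20), while 53% of all genes tested were below 0. Fcer1g, the common gamma chain that is also part of the IgG receptors of macrophages, stood at 96.3, 132 and 116 CPM in the implant libraries and at 89.4, 69.4 and 124 CPM in NC. Vav1, an exchange factor of blood cells, was the 1 gene of this list with an unadjusted p under 0.05 (0.0469, edgeR adjusted p 1). It stood at 15.7, 19.4 and 19.6 CPM with the implant and at 14.8, 12.8 and 14.8 CPM in NC, without overlap. Plcg2 did not overlap either, at 16.4, 16.4 and 16.2 CPM with the implant and 15.8, 11.8 and 15.0 CPM in NC. Thus 2 of the 12 genes did not overlap, against 5.69% of all genes tested. Ptprc, the pan-leukocyte marker CD45, had the same direction, at 102, 115 and 104 CPM with the implant and 76.5, 78.1 and 99.0 CPM in NC, and its part in the values of this list was not tested. Relative to Ptprc, 4 of the 9 mast cell genes (Cpa3, Kit, Tpsb2 and Cma1) were lower in each implant library than in any NC library, as were 25.7% of all genes tested. This ratio was looked at after the values were seen.

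Mediator synthesis was measured by 8 genes, with 0 called, 4 above 0 and 4 below (median log2 fold change 0.04). Hpgds, the synthase of prostaglandin D2 in mast cells and other leukocytes, had the smallest unadjusted p. It stood at 2.11, 4.78 and 2.06 CPM in the implant libraries and at 7.48, 3.76 and 5.42 CPM in NC (log2 fold change -0.89 ± 0.45, SE, edgeR unadjusted p 0.0948, adjusted p 1), and the groups overlapped. Tph1, which makes the serotonin that rodent mast cells store, stood at 3.57, 4.56 and 2.06 CPM with the implant and at 4.10, 1.91 and 12.7 CPM in NC, again highest in NC 3. Ltc4s, the leukotriene C4 synthase, stayed between 0.925 and 2.31 CPM. Of the histamine receptors, Hrh1 stood at 7.67, 5.54 and 13.6 CPM in the implant libraries and at 6.13, 8.32 and 6.14 CPM in NC. The degrading enzyme Hnmt was listed at 0 in all 6 libraries and Aoc1 had 0 to 14 counts, so the breakdown of histamine could not be described.

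Among receptors found on mast cells, 8 of 11 were tested and 0 called. Mrgprb3, of the Mrgprb receptor group to which the mouse mast cell receptor for basic peptides belongs, had the smallest unadjusted p of this list. It had 42, 54 and 31 counts in the implant libraries and 63, 52 and 79 in NC, which is 2.46, 2.93 and 1.83 CPM with the implant against 3.27, 3.01 and 5.71 CPM in NC. The groups did not overlap, but implant 2 and NC 2 differed little and the symbol has a further entry at 0 (log2 fold change -0.73 ± 0.37, SE, edgeR unadjusted p 0.0932, adjusted p 1). Il1rl1, the receptor for interleukin-33, stood at 21.7, 17.8 and 10.1 CPM with the implant and at 17.7, 10.9 and 25.9 CPM in NC, with implant 3 lowest and NC 3 highest. Its ligand Il33, an alarmin released by damaged stromal cells, stood at 381, 560 and 264 CPM with the implant and at 442, 358 and 425 CPM in NC (log2 fold change -0.02 ± 0.29, SE, edgeR adjusted p 1). Of 8 growth and survival cytokines 4 were tested and 0 called, and Il3, Il4 and Il9 had 0 counts in each library.

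Transcription factors of the lineage were measured by 8 genes, 0 of them called. Spi1, the factor PU.1 of myeloid cells, had the smallest unadjusted p and did not overlap between the groups, at 27.7, 27.0 and 30.1 CPM with the implant and 21.1, 21.8 and 26.5 CPM in NC (log2 fold change 0.29 ± 0.13, SE, edgeR unadjusted p 0.0719, adjusted p 1). Gata3 did not overlap either, at 0.937, 2.06 and 1.18 CPM with the implant and 0.779, 0.809 and 0.795 CPM in NC. Its log2 fold change was 0.81 ± 0.43 (SE). Thus 2 of the 8 genes did not overlap, against 5.69% of all genes tested. Gata1, which red cell precursors also express, stood at 3.86, 7.82 and 12.0 CPM in the implant libraries and at 0.883, 0.347 and 33.5 CPM in NC. Its order of libraries was that of the red cell gene Alas2, at 550, 921 and 1628 CPM with the implant and 55.3, 54.8 and 2860 CPM in NC. Tal1 stood at 16.5, 18.4 and 12.4 CPM with the implant and at 15.7, 10.7 and 26.0 CPM in NC.

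Markers of other cells that can carry these transcripts were set beside them. Basophils share Fcer1a, Ms4a2 and Cpa3 with mast cells. Their protease Prss34 had 0 counts in each library and Mcpt8 had 9, 3 and 5 counts in the implant libraries against 1, 1 and 1 in NC. Il3ra, the interleukin-3 receptor chain that other blood cells and endothelium also express, was the 1 tested gene of the basophil list of 4, of which 3 were in the table. It stood at 7.32, 10.1 and 8.79 CPM with the implant and at 5.71, 7.57 and 9.33 CPM in NC (log2 fold change 0.22 ± 0.24, SE, edgeR adjusted p 1). The part of basophils in the shared transcripts was not tested. The eosinophil granule genes Epx and Prg2 had 0 to 2 counts, while Ccr3, a chemokine receptor of eosinophils, had 38, 76 and 57 counts with the implant and 40, 48 and 9 in NC (log2 fold change 0.81 ± 0.56, SE, edgeR adjusted p 1). For melanocytes, another Kit-bearing cell, Tyr had 0 counts in each library, and Dct and Mlana had 1 to 8. Pmel, a further melanocyte gene, passed the filter with 15, 47 and 16 counts with the implant and 25, 15 and 11 in NC, and the part of melanocytes in the Kit level was not tested. Neutrophils, which can make histamine through Hdc, were present: S100a9 stood at 110, 205 and 155 CPM in the implant libraries and at 22.8, 13.2 and 177 CPM in NC. Of the 7 neutrophil and eosinophil genes 5 were tested, 5 had a log2 fold change above 0, while 53% of all genes tested were below 0, and 0 were called. Their summed level was 171, 320 and 234 CPM with the implant and 41.0, 26.9 and 254 CPM in NC, and its part in the Hdc level was not tested. Csf3r had the smallest unadjusted p of these genes (log2 fold change 1.36 ± 0.58, SE, edgeR unadjusted p 0.0555). It stood at 25.5, 41.5 and 21.8 CPM with the implant and at 8.15, 4.91 and 21.6 CPM in NC. The groups did not overlap, but implant 3 and NC 3 differed little. Thus 1 of the 5 tested genes did not overlap, against 5.69% of all genes tested.

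Endothelial markers, which bear on Gata2, moved in part with it. The 7 endothelial genes were all tested, 5 had a log2 fold change above 0, while 53% of all genes tested were below 0, and 0 were called. Their summed level was 1219, 1437 and 1081 CPM in the implant libraries and 1157, 743 and 1757 CPM in NC. NC 3 was thus the highest, as for Gata2 in CPM. NC 2 was the lowest, while Gata2 was about equal in NC 2 (9.25 CPM) and implant 3 (9.26 CPM). The part of endothelium in the Gata2 level was not tested. Adipocyte markers (10 genes, 10 of them below 0 against 53% of all genes tested, 0 called) summed to 2664, 5048 and 3424 CPM with the implant and to 5055, 2114 and 14558 CPM in NC, and were also highest in NC 3. With the mean level of these adipocyte genes as a term in the fit, 5 of the 9 mast cell genes had a log2 fold change below 0. The median was -0.10 over the 9 genes and -0.0038 over all genes tested. With the haemoglobin level as a term, 9 of 9 were below 0, with a median of -0.61 against 0.028 over all genes tested. Cma1 had the smallest unadjusted p of the 9 in that fit, 0.00465 (edgeR adjusted p 0.425). Neither fit called any of the 9 genes.

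The genes whose profile over the 6 libraries was most like that of Cpa3 were then listed, among genes with a symbol and a mean log2 CPM of at least 1 that are not mast cell genes. Among the 10 with the highest Pearson r were Zfp384, Slc39a13, Btbd1, Picalm, Ndufc2, Hspa5, Erp44, Ube2z and Herc4, and the r of the 10 lay between 0.982 and 0.995 (n = 6 libraries). Zfp384, the first of them, lay between 30.6 and 38.0 CPM, and Hspa5, a chaperone of the endoplasmic reticulum, between 426 and 638 CPM. In all, 181 genes (1.29%) had an r of at least 0.9 with Cpa3. Among them were Tpsb2 (0.97, rank 23 of 13998) and Ms4a2 (0.96, rank 36) of the mast cell genes, and Kitlg (0.95, rank 62), Mrgprb3 (0.93, rank 120) and Mcpt1l1 (0.92, rank 148) of the other lists. Kit and Tpsab1 had an r of 0.69 each.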

How the data were processed

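The authors deposited estimated counts per gene for 6 libraries, 3 per group; 1898 to 2085 values per library were not whole, and they were rounded to whole numbers. Tools listed without a role are StringTie 1.3.1, Bowtie2 2.2.8, DESeq2 and HISAT2, per the submitters' processing notes. No source used here names the counter, the genome build or the annotation. The kit does not mark strand, per the labels' protocols, so overlapping and antisense genes cannot be told apart. The implant columns carry the name Gel_HA-Mg, which omits GDNF, and no other group holds that material. In each pair of libraries the counts differed beyond sampling noise (chi-square per degree of freedom 86.5 to 533).

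Genes were filtered with filterByExpr, scaled by TMM and tested with edgeR 4.0.16 (quasi-likelihood, two-sided, Benjamini-Hochberg over all genes tested, threshold 0.05) in R 4.3.3, after the scripts were tested on simulated data. DESeq2 1.42.0 and limma 3.58.1 were alternatives, beside other scalings and filters, haemoglobin or adipocyte level as a term, a replicate block and leaving out each library. CPM use the TMM-scaled library size, and log2 CPM a prior count of 2. Standard errors were derived from each F statistic (size of the change over the square root of F), with its degrees of freedom for 95% intervals. Intervals of count ratios are exact binomial and cover counting error only. Text names the 9 genes, up to 4 genes of each other list by smallest p, 7 preset genes and the 10 genes most like Cpa3, of which 1 is not reported here; others named (Mcpt1l1, Mcpt2, Mcpt9, Ngfr, Sox10, Ptprc, Alas2, Gata1, Tal1, Ltc4s, S100a9 and marker genes at or near 0 among them) were chosen after their values were seen. The mast cell genes and the lists were chosen with earlier results of these data known.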

Additional observations from a re-analysis of the deposited data

How the results depend on the processing

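In no setting was a mast cell gene called. Over all genes, DESeq2 called 11 and each other setting called 0. The median log2 fold change of the 9 genes was -0.29, and it lay between -0.51 (without NC 1) and 0.031 (without NC 3) when each library was left out in turn. It was -0.61 with the haemoglobin level as a term and -0.10 with the adipocyte level. The direction of single genes turned for Hdc with DESeq2's size factors (-0.0042) and with the haemoglobin term (-0.22), and for Gata2 with limma-voom (0.0014), the adipocyte term (0.27), total counts alone (0.012) and total counts without haemoglobin genes (0.011), the last 2 chosen after seeing the data. With the adipocyte term Fcer1a was at 0.49 and Ms4a2 at 0.064. Leaving out 1 library gave -0.65 to 0.60 for Fcer1a, -0.36 to 0.29 for Gata2, -0.16 to 0.37 for Hdc, -0.48 to 0.16 for Ms4a2 and -0.70 to 0.031 for Tpsb2. Cpa3, Kit, Tpsab1 and Cma1 were below 0 in each setting, but leaving out 1 library gave -0.69 to -0.11 for Cpa3, -0.43 to -0.12 for Kit, -0.75 to -0.10 for Tpsab1 and -0.67 to -0.08 for Cma1. The cause was not tested. With a replicate block the median was -0.25. Deviations from the group mean correlated at 0.099, -0.718 and 0.0553 between libraries of equal number. The labels give no pairing, and with 3 libraries per group these values cannot decide whether the libraries are paired.

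With 3 libraries per group and 37 to 147 counts for Fcer1a, the intervals of most genes include changes of 2-fold.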

Other observations

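The ratio of the 2 tryptases differed between libraries, a comparison chosen after their values were seen. Tpsab1 had 0.59, 0.377 and 0.667 of the Tpsb2 count in implant 1, implant 2 and implant 3, and 0.364, 0.746 and 0.483 in NC 1, NC 2 and NC 3. The 95% counting interval of NC 2 (0.575 to 0.967) did not meet that of NC 1 (0.262 to 0.499). No test was made.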
